A study of Mus musculus with 11 samples.

Results

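The nuclear-encoded subunits of oxidative phosphorylation were examined in mouse embryonic stem cells with a degron on SPT16, which with SSRP1 makes up the histone chaperone FACT. Members were taken by gene symbol from the count table. They are the subunits of NADH dehydrogenase (complex I, Nduf symbols), succinate dehydrogenase (complex II, Sdh), the cytochrome bc1 complex (complex III, Uqcr and Cyc1), cytochrome c oxidase (complex IV, Cox4 to Cox8) and ATP synthase (complex V, Atp5). The rule gave 85 genes of 55291 rows, with 36 in complex I, 4 in complex II, 9 in complex III, 19 in complex IV and 17 in complex V. A further 10 matching symbols that end in -ps were left out, none with more than 9 counts in any library. Genes were assigned by symbol, so Ndufa4, now often counted with complex IV, stands in complex I, and Cox7a2l, known as a factor of respiratory supercomplexes, stands in complex IV.

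RNA was sequenced from E14 cells grown without feeders in serum with LIF and inhibitors of GSK3 and MEK. The IAA-treated degron cells carried SPT16-V5-AID and received 500 nM indole-3-acetic acid (IAA, the auxin that triggers degradation of the tagged protein) for 24 hours. The count table holds 3 of their libraries, 1 from line 10E and 2 from line 11D. The labels list IAA replicates 1 and 2 for both degron clones, so the sample without counts is an IAA-treated degron sample. The EtOH-treated degron cells were the same lines given the solvent ethanol for 24 hours, with 2 libraries from each line, and the untagged cells received 500 nM IAA for 24 hours and gave 3 libraries. Each degron line is 1 targeted clone. The libraries held 3100127 to 13510163 counts. The series title names pluripotency factors as the study's question and does not speak of respiratory genes.

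Oxidative phosphorylation couples the oxidation of NADH and succinate to the synthesis of ATP. Complexes I, III and IV pump protons across the inner mitochondrial membrane, complex II feeds electrons into the chain without pumping, and complex V uses the proton gradient to make ATP. Most subunits are encoded in the nucleus and a small core of complexes I, III, IV and V in mitochondrial DNA. Mouse pluripotent cells in the naive state are known to use both glycolysis and respiration.

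Transcripts of the tagged gene itself, Supt16, stood at 278, 253 and 286 CPM (counts relative to library size, scaled by the trimmed mean of M-values, TMM) in IAA-treated degron cells, at 383, 415, 363 and 389 CPM in EtOH-treated degron cells and at 552, 537 and 576 CPM in untagged cells. The degron acts on the protein, so these values do not show how far SPT16 was depleted. The 8 stem cell markers summed to between 1736 and 1971 CPM in IAA-treated degron cells, between 4154 and 5645 CPM in EtOH-treated degron cells and between 4770 and 5016 CPM in untagged cells, and all 8 were lower in every IAA-treated degron library than in any EtOH-treated one. Among markers of other cell types, those of trophectoderm summed to 27.5 to 35.0 CPM in IAA-treated degron cells, 11.8 to 26.1 CPM in EtOH-treated degron cells and 19.4 to 25.6 CPM in untagged cells. Those of primitive endoderm summed to 7.09 to 11.4 CPM, 2.42 to 6.93 CPM and 2.98 to 5.31 CPM in the same order of groups, those of fibroblasts to 14.8 to 19.5 CPM, 21.6 to 34.3 CPM and 22.1 to 28.6 CPM, and those of neural cells to 23.4 to 46.9 CPM, 29.7 to 40.4 CPM and 20.6 to 31.1 CPM. These sums rest on few genes. Of all genes tested, 27.6% had each IAA-treated degron library above all EtOH-treated ones, and 24.8% had each below them. Each IAA-treated degron library lay above all EtOH-treated ones in 1 of 5 trophectoderm (Krt8), 1 of 5 primitive endoderm (Dab2), 2 of 5 neural (Neurod1 and Pax6) and 0 of 6 fibroblast markers, and below them in 1 fibroblast marker (Pdgfrb); these genes are named after their values were seen. Dab2 was at 3.80 to 5.90 CPM in IAA-treated degron cells, 0.493 to 0.805 CPM in EtOH-treated degron cells and 0.372 to 1.35 CPM in untagged cells, and Neurod1 at 6.997 to 12.2 CPM, 0.447 to 1.57 CPM and 0 to 1.02 CPM in the same groups. No marker was at 0 in every library, while 3 of 6 fibroblast, 3 of 5 primitive endoderm, 2 of 5 trophectoderm and 1 of 5 neural markers stayed under 2 CPM in all 10. Their part in the members' values was not tested, and in bulk RNA fewer cells of a type and less RNA per cell cannot be told apart.

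Subunit transcripts were more often lower than higher after IAA. Of the 80 members that could be tested, 40 were lower and 4 higher in IAA-treated than in EtOH-treated degron cells, by edgeR's quasi-likelihood test at a false discovery rate (FDR) under 0.05, while 28.1% of all 17904 genes tested were lower and 29.3% higher. The median log2 fold change of the members was -0.31, against 0.03 over all genes tested. Subunit genes are well expressed, and among the 9679 genes with a mean of at least 10 CPM, 41.9% were lower and 22.8% higher, and their median was -0.18. The changes were mostly small, and Ndufb4 and Atp5g2 were the only members called at a level 2-fold lower or more, with none 2-fold higher. The authors' deposited table of IAA against EtOH listed 26 members as lower and 3 as higher at an adjusted p under 0.05, with 5 members lacking an adjusted p. In 33 members each of the 3 IAA-treated libraries lay below all 4 EtOH-treated ones (24.8% of all genes did so), and in 4 members each lay above (27.6% of all genes). These shares were not computed among genes with at least 10 CPM.

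The split depends on how libraries were scaled. With library totals in place of TMM, 14 members were lower and 17 higher, and the median was 0.03, against 0.36 over all genes. The members together took 0.764% to 0.838% of all counts in IAA-treated degron cells, 0.792% to 0.859% in EtOH-treated degron cells and 0.736% to 0.813% in untagged cells, ranges that overlap. The TMM factor was 1.13 to 1.20 in the IAA-treated degron libraries, against 0.885 to 0.983 in the EtOH-treated ones and 0.945 to 0.957 in the untagged ones. All fold changes below are relative to the bulk of expressed genes as TMM sets it. Under both scalings the members' median lay below that of all genes.

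**Figure D1:**
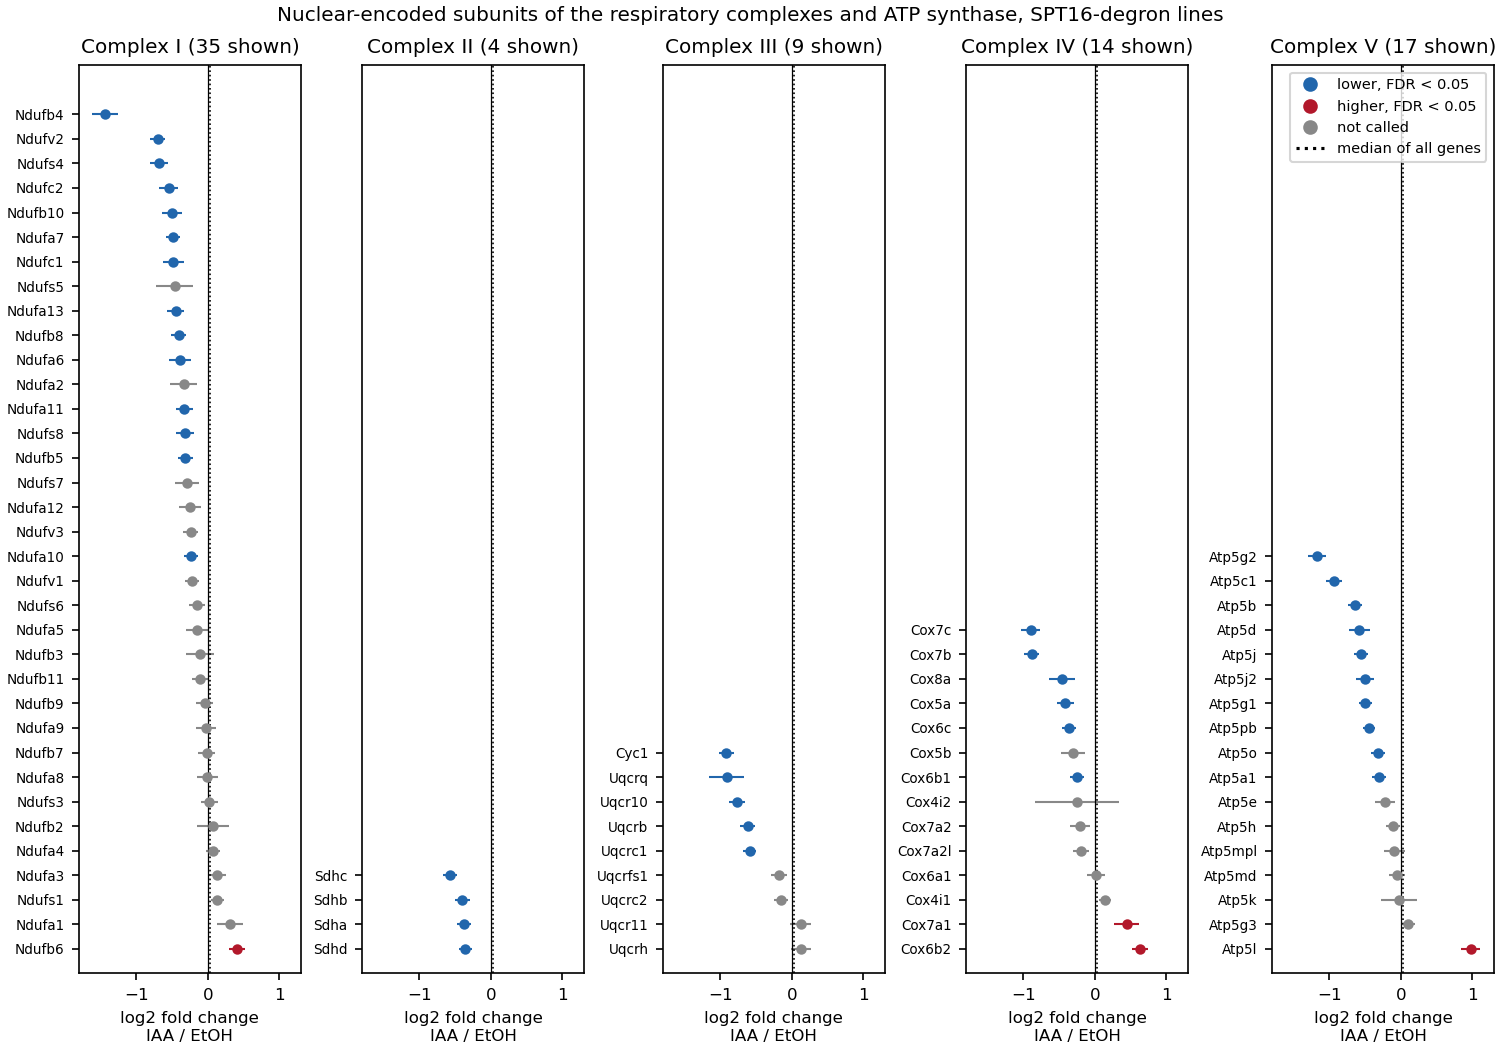
Log2 fold change of IAA-treated over EtOH-treated degron cells (x axis) for 79 of the 80 tested members, 1 panel per complex, with bars for the standard error; blue marks lower and red higher calls at an FDR under 0.05, and the dotted line is the median of all genes tested. All 4 genes of complex II and 5 of 9 of complex III are blue, and the 4 red genes are Ndufb6, Cox7a1, Cox6b2 and Atp5l.

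The 5 other members were hardly detected. Cox6a2, Cox6c2, Cox7b2 and Cox8c had fewer than 20 counts each over all libraries, and Cox8b had none, which allows a level of up to 0.0389 CPM over the 10 libraries, by counting error only. Cox6a2, Cox7a1 and Cox8b are known as subunit isoforms of heart and skeletal muscle, and Cox7a1 was the one of them that was measured here.

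Promoters of respiratory genes are known for sites of NRF1, of the ETS factor GABP and of YY1. The sequence from 250 bases before to 50 bases after the RefSeq start (GRCm38.p6) was found for 68 members, in 73 windows because some genes have several starts. The NRF1 letters, GCGC followed by any base and then TGCGC on either strand, occurred in 24.66% of the members' windows and in 4.6% of all 32851 windows. The ETS letters CCGGAAG occurred in 23.29% of the members' windows and in 8.86% of all windows, and the YY1 letters AAGATGGCG in 9.59% and 1.4%. All windows were counted whether or not their genes were expressed here. Shares among genes of the members' level or base content were not computed. No match of one motif overlapped a match of another in the members' windows. The NRF1 letters stood in 9 of 37 windows of members called lower, in 0 of 4 windows of members called higher and in 9 of 30 windows of members not called. The ETS letters stood in 6, 2 and 9 of these windows and the YY1 letters in 4, 0 and 3. The 250 bases before the start are shown for the member of complex I with the largest fall, for the 3 genes that encode the same c subunit of ATP synthase, and for Atp5l, which rose most. They are Ndufb4 (chr16:37654369-37654618), Atp5g2 (chr15:102671048-102671297), Atp5g1 (chr11:96075632-96075881), Atp5g3 (chr2:73911327-73911576) and Atp5l (chr9:44920743-44920992), all read on the minus strand, 5′ to 3′, with matches to the 3 motifs in capitals.
Ndufb4: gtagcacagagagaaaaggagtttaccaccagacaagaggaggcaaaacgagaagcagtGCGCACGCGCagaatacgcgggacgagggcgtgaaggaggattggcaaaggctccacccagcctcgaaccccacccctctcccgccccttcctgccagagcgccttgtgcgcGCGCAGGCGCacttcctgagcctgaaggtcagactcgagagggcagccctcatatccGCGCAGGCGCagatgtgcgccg
Atp5g2: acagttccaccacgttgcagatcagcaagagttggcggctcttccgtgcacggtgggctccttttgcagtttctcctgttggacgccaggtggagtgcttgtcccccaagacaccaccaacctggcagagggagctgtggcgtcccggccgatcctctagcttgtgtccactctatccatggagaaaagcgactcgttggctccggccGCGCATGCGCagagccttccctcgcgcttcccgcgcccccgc
Atp5g1: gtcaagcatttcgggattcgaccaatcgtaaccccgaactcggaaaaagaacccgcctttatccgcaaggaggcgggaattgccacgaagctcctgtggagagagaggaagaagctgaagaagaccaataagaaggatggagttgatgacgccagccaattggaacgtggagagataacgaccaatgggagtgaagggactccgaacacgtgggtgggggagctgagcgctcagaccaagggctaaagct
Atp5g3: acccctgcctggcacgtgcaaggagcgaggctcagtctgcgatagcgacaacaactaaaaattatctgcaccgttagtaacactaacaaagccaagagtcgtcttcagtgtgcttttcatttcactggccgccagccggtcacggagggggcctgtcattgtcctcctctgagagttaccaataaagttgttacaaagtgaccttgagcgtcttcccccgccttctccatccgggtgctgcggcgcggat
Atp5l: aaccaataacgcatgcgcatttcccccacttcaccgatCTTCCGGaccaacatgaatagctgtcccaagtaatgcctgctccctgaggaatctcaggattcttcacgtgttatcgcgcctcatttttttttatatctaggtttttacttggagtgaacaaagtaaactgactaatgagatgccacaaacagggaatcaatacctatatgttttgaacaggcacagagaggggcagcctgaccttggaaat
Ndufb4 held NRF1 letters that begin at -191, -79 and -22 from the start, and Atp5g2 held them at -42. Atp5g1 held none of the 3 motifs before its start, and Atp5g3 held NRF1 letters at 13, after its start. Atp5l held ETS letters at -212 and at 25.

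Complex I takes electrons from NADH and passes them to ubiquinone. Of its 36 members 15 fell and 1 rose, and the median log2 fold change was -0.24; the 41.7% that fell lie between the 28.1% of all genes and the 41.9% of genes with at least 10 CPM. With library totals alone the balance turned, with 4 lower, 8 higher and a median of 0.09. The largest change was in Ndufb4, an accessory subunit of the membrane arm. It stood at 5.69, 9.38 and 9.16 CPM in IAA-treated degron cells (10E, then 11D), at 16.3, 21.8, 23.6 and 21.8 CPM in EtOH-treated degron cells (10E, 10E, 11D, 11D) and at 16.2, 16.5 and 19.5 CPM in untagged cells. No IAA-treated degron library came near either of the other groups, and the log2 fold change to EtOH was -1.44 ± 0.18 (SE, edgeR FDR 5.57e-06).

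In the peripheral arm, where NADH is oxidised, Ndufv2, an iron-sulfur subunit, fell by 0.70 ± 0.11 on the log2 scale. Its levels were 69.1, 98.9 and 85.0 CPM in IAA-treated degron cells, 130, 137, 126 and 139 CPM in EtOH-treated degron cells and 143, 136 and 135 CPM in untagged cells. Ndufs4, an accessory subunit of the same arm whose loss in mice models Leigh syndrome, stood at 32.1, 25.6 and 30.2 CPM in IAA-treated degron cells, at 44.6, 50.2, 41.6 and 52.4 CPM in EtOH-treated degron cells and at 56.4, 51.6 and 60.0 CPM in untagged cells. Its log2 fold change to EtOH was -0.68 ± 0.13, and the IAA-treated degron libraries lay below all others. Ndufs1, Ndufs3 and Ndufv1, core subunits of this arm as Ndufv2 is, had values of 0.13 ± 0.10, 0.02 ± 0.12 and -0.22 ± 0.10 and were not called. Ndufs8, also a core subunit, was called lower by edgeR but not by DESeq2 (log2 fold change -0.28 ± 0.16, FDR 0.122). The core subunit Ndufs7 was not called. Ndufb6, of the membrane arm, was the 1 member of complex I that rose. It stood at 46.8, 42.9 and 48.7 CPM in IAA-treated degron cells, 38.4, 37.0, 33.6 and 32.8 CPM in EtOH-treated degron cells and 45.1, 35.7 and 42.9 CPM in untagged cells. The IAA-treated degron libraries lay above the EtOH-treated ones but among the untagged ones, and the log2 fold change to EtOH was 0.40 ± 0.11.

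Complex II, or succinate dehydrogenase, is also an enzyme of the citric acid cycle, and all of its subunits are nuclear. All 4 genes fell, and in all 4 each IAA-treated degron library lay below every EtOH-treated and every untagged library. The calls stand beside 28.1% of all genes and 41.9% of genes with at least 10 CPM. Each IAA-treated library lay below all EtOH-treated ones in 24.8% of all genes. The share of all genes that also lay below the untagged libraries was not computed, nor was either share among genes with at least 10 CPM. Sdha, the flavoprotein that oxidises succinate, stood at 169, 148 and 171 CPM in IAA-treated degron cells, 228, 242, 179 and 213 CPM in EtOH-treated degron cells and 248, 234 and 237 CPM in untagged cells. Its log2 fold change to EtOH was -0.37 ± 0.10, a call that was lost without the 10E IAA library (FDR 0.0631). The iron-sulfur subunit Sdhb changed by -0.40 ± 0.11. The membrane anchors Sdhc and Sdhd changed by -0.57 ± 0.10 and -0.36 ± 0.09. Sdhc stood at 69.1, 60.8 and 67.3 CPM in IAA-treated degron cells, 99.1, 94.2, 93.5 and 103 CPM in EtOH-treated degron cells and 81.8, 82.8 and 98.8 CPM in untagged cells. With library totals alone, none of the 4 was called, with log2 fold changes between -0.24 and -0.02.

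Complex III passes electrons from ubiquinol to cytochrome c. Of its 9 members 5 fell and none rose, and the median was -0.59, the lowest of the 5 complexes. The 55.6% that fell stand beside 28.1% of all genes and 41.9% of genes with at least 10 CPM. Cyc1, the heme protein that hands electrons to cytochrome c, stood at 98.4, 90.7 and 87.6 CPM in IAA-treated degron cells, 198, 180, 187 and 145 CPM in EtOH-treated degron cells and 114, 147 and 141 CPM in untagged cells. The 3 IAA-treated degron libraries lay below all others, and the log2 fold change to EtOH was -0.92 ± 0.10 (edgeR FDR 1.83e-06). The small subunits Uqcr10 and Uqcrb fell by 0.77 ± 0.11 and 0.62 ± 0.11, and the core subunit Uqcrc1 by 0.59 ± 0.09. With library totals alone 5 members of this complex were lower and 2 higher, and the median was -0.25. Uqcrc2, the partner of Uqcrc1, and Uqcrfs1, the Rieske iron-sulfur protein, had values of -0.15 ± 0.10 and -0.18 ± 0.11 and were not called. Uqcrq stood at 39.6, 49.5 and 29.1 CPM in IAA-treated degron cells and at 96.6, 91.8, 89.5 and 36.8 CPM in EtOH-treated degron cells, with 1 EtOH library, 11D replicate 2, among the IAA-treated ones. Its log2 fold change of -0.91 ± 0.25 was called by edgeR (FDR 0.00502) but not by DESeq2 (FDR 0.0733), nor without the 10E IAA library (FDR 0.130).

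Complex IV reduces oxygen to water, and several of its subunits exist as isoforms from separate genes. Of the 14 members tested 6 fell and 2 rose, and the median was -0.25. The 42.9% that fell are near the 41.9% of genes with at least 10 CPM, and with library totals alone the balance turned to 2 lower and 4 higher with a median of 0.08. The falls were led by Cox7c and Cox7b, small subunits of the membrane part. Cox7c stood at 38.5, 31.8 and 25.8 CPM in IAA-treated degron cells, 54.5, 63.8, 58.7 and 60.5 CPM in EtOH-treated degron cells and 53.6, 61.9 and 66.0 CPM in untagged cells, a log2 fold change to EtOH of -0.90 ± 0.13. Cox7b stood at 47.0, 59.7 and 56.2 CPM in IAA-treated degron cells, 92.2, 101, 92.9 and 105 CPM in EtOH-treated degron cells and 98.7, 91.5 and 87.7 CPM in untagged cells, a log2 fold change to EtOH of -0.89 ± 0.11. In both genes the IAA-treated degron libraries were the 3 lowest of the 10. Cox5a and Cox6c fell by 0.42 ± 0.12 and 0.36 ± 0.10. Cox4i1, the general isoform of subunit 4, was at 255, 224 and 262 CPM in IAA-treated degron cells, 233, 240, 209 and 224 CPM in EtOH-treated degron cells and 189, 190 and 208 CPM in untagged cells. Its groups with and without IAA in the degron lines overlapped, and its log2 fold change of 0.14 ± 0.09 was not called with TMM (FDR 0.186) but was called as higher with upper-quartile factors and with library totals.

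Cox6b2, known in mammals as the testis isoform of subunit 6b, rose. It stood at 76.1, 70.2 and 61.3 CPM in IAA-treated degron cells, 46.1, 45.3, 40.1 and 47.0 CPM in EtOH-treated degron cells and 27.7, 36.5 and 40.1 CPM in untagged cells. The IAA-treated degron libraries lay above all others, with a log2 fold change to EtOH of 0.63 ± 0.11 (edgeR FDR 0.000132). Its general counterpart Cox6b1 changed by -0.25 ± 0.10 (FDR 0.0439), a call lost under most alternatives and turned to 0.09 with library totals. Cox7a1, the muscle isoform of subunit 7a, stood at 12.0, 15.6 and 15.4 CPM in IAA-treated degron cells, 9.94, 11.2, 9.63 and 10.3 CPM in EtOH-treated degron cells and between 9.93 and 12.1 CPM in untagged cells, with 0.45 ± 0.17 to EtOH (FDR 0.0382). DESeq2 did not call it (FDR 0.0591). Cox8a had -0.46 ± 0.18 (FDR 0.0412), which moved to -0.02 without both EtOH libraries richest in a ribosomal RNA row, and Cox6a1 had 0.01 ± 0.13. Cox4i2, the isoform linked to low oxygen, was under 2 CPM in every library.

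Complex V makes ATP in a catalytic head driven by a membrane rotor. Of its 17 members 10 fell and 1 rose, and the median was -0.32. The 58.8% that fell stand beside 28.1% of all genes and 41.9% of genes with at least 10 CPM, but with library totals alone 3 were lower and 3 higher, and the median was 0.01. Atp5b, the catalytic beta subunit, had the highest level per length of all members in each group, at 569 CPM per kilobase of its principal transcript in IAA-treated degron cells, 897 in EtOH-treated degron cells and 802 in untagged cells. Its level was 1135, 1074 and 1062 CPM in IAA-treated degron cells, 1645, 1891, 1669 and 1666 CPM in EtOH-treated degron cells and 1452, 1533 and 1624 CPM in untagged cells. No IAA-treated degron library reached any other, and the log2 fold change to EtOH was -0.65 ± 0.10 (edgeR FDR 3.89e-05). Atp5c1, the gamma subunit that forms the rotating shaft, fell by 0.93 ± 0.11. It stood at 84.0, 94.7 and 91.6 CPM in IAA-treated degron cells, 121, 165, 188 and 192 CPM in EtOH-treated degron cells and 192, 183 and 204 CPM in untagged cells. The alpha subunit Atp5a1, the stalk subunits Atp5pb and Atp5o, and Atp5d of the shaft fell by 0.30 ± 0.10, 0.45 ± 0.09, 0.32 ± 0.09 and 0.58 ± 0.15. Without the 10E IAA library, edgeR no longer called Atp5a1 (FDR 0.124), Atp5o (FDR 0.0971) or Atp5d (FDR 0.0635), while Atp5pb stayed called. Atp5d averaged 84.5 CPM in IAA-treated degron cells, 128 CPM in EtOH-treated degron cells and 84.6 CPM in untagged cells.

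Atp5l, subunit g at the dimer interface of the membrane part, rose most of all members. It stood at 49.0, 56.3 and 62.4 CPM in IAA-treated degron cells, 19.2, 28.2, 33.6 and 29.1 CPM in EtOH-treated degron cells and 30.7, 31.5 and 27.2 CPM in untagged cells. The IAA-treated degron libraries lay above all others, with a log2 fold change to EtOH of 0.98 ± 0.13 (edgeR FDR 1.38e-05). Its sequence is shared widely, since 84.85% of its 50-base windows also occur in transcripts of other genes. The copy with the largest share, Gm10221, had at most 17 counts in any library, and how the authors' counting treated reads that map to several places is not given in the sources used here, so the level of Atp5l is uncertain. For Ndufb4, Uqcrb and Ndufb6 these shares were 36.98%, 43.42% and 34.1%. Atp5k, Atp5md and Atp5mpl, other small subunits of the membrane part, had values of -0.03 ± 0.25, -0.05 ± 0.11 and -0.09 ± 0.15 and were not called.

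**Figure D2:**
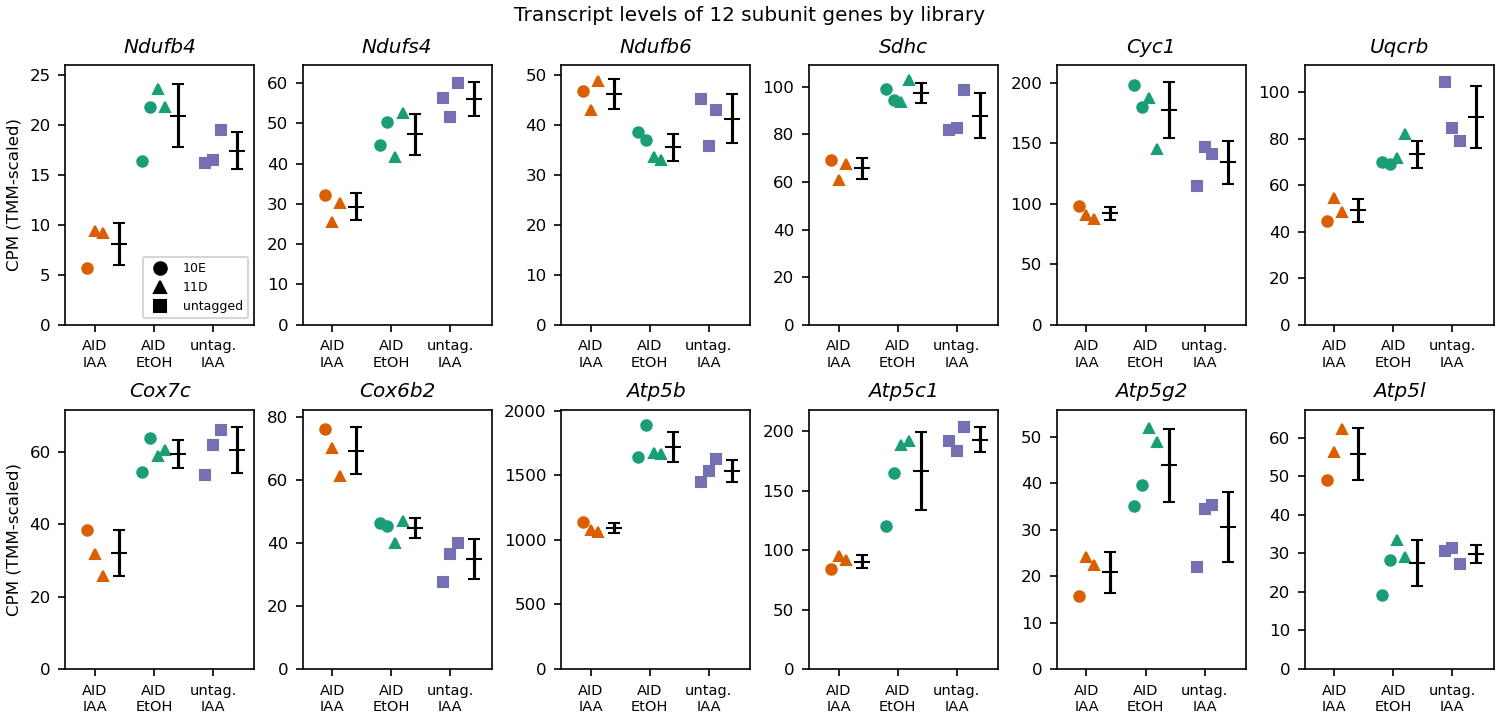
Levels of 12 members in CPM (y axis, from 0) in each library, with IAA-treated degron cells at the left, EtOH-treated degron cells in the middle and untagged cells at the right; circles are line 10E, triangles 11D, squares the untagged line, and bars show mean and SD. Cox6b2 and Atp5l are highest in the IAA-treated degron libraries, while Ndufb4, Cox7c, Atp5b and Atp5c1 are lowest there.

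Atp5g1, Atp5g2 and Atp5g3 encode precursors of the same mature c subunit, which forms the rotor ring. Atp5g2 stood at 15.7, 24.2 and 22.4 CPM in IAA-treated degron cells, 35.0, 39.6, 51.9 and 48.9 CPM in EtOH-treated degron cells and 21.9, 34.5 and 35.2 CPM in untagged cells. The IAA-treated degron libraries lay below all EtOH-treated ones but overlapped the untagged ones, and the log2 fold change to EtOH was -1.17 ± 0.12 (edgeR FDR 1.08e-06). Atp5g1 stood at 80.3, 80.4 and 81.9 CPM in IAA-treated degron cells, 122, 120, 109 and 109 CPM in EtOH-treated degron cells and 75.8, 95.4 and 90.4 CPM in untagged cells, and fell by 0.50 ± 0.09. Atp5g3 overlapped between all groups, with 144, 96.1 and 108 CPM in IAA-treated degron cells, 120, 152, 95.4 and 91.9 CPM in EtOH-treated degron cells and 130, 122 and 128 CPM in untagged cells, and its value of 0.10 ± 0.10 was not called.

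Ratios of counts within a library do not depend on scaling. There were 51.9, 48.6 and 39.9 Cox6b2 counts per 100 Cox6b1 counts in IAA-treated degron cells, 27.9, 21.9, 25.3 and 26.5 in EtOH-treated degron cells and 17.7, 20.8 and 23.3 in untagged cells. The mean was 46.8 ± 6.23 in IAA-treated and 25.4 ± 2.56 in EtOH-treated degron cells (SD, n = 3 and 4). A two-sided exact permutation test gave p = 0.0286, the smallest that 3 against 4 libraries allow, and 0.143 after Benjamini-Hochberg adjustment over 5 ratios, so no ratio could pass the adjustment alone. Cox7a1 per 100 Cox7a2 counts averaged 27.8 ± 7.38 in IAA-treated and 17.2 ± 3.19 in EtOH-treated degron cells, with overlapping libraries (exact permutation p = 0.0857). Atp5g2 per 100 Atp5g3 counts averaged 19.0 ± 7.27 in IAA-treated and 40.7 ± 15.2 in EtOH-treated degron cells (exact permutation p = 0.114). This permutation pools the lines, which differed by more than their replicates. In line 10E the ratio was 10.96 in the IAA library and 29.3 and 26.0 in the EtOH libraries, and in line 11D it was 25.15 and 20.8 with IAA and 54.4 and 53.2 with EtOH, so within each line the IAA libraries lay below the EtOH ones. Atp5g1 per 100 Atp5g3 counts averaged 71.8 ± 14.4 in IAA-treated and 103 ± 17.8 in EtOH-treated degron cells (exact permutation p = 0.0857), and Cox4i2 per 100 Cox4i1 counts 0.366 ± 0.202 and 0.501 ± 0.249 (exact permutation p = 0.486). In untagged cells the Atp5g2 ratio was 16.9, 28.2 and 27.4 and the Atp5g1 ratio 58.3, 78.0 and 70.4. Both overlapped the IAA-treated degron libraries. Against the EtOH-treated ones, the untagged Atp5g2 ratios overlapped and the untagged Atp5g1 ratios were all lower. The untagged means were 16.1 for the Cox7a1 ratio and 0.160 for the Cox4i2 ratio.

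**Figure D3:**
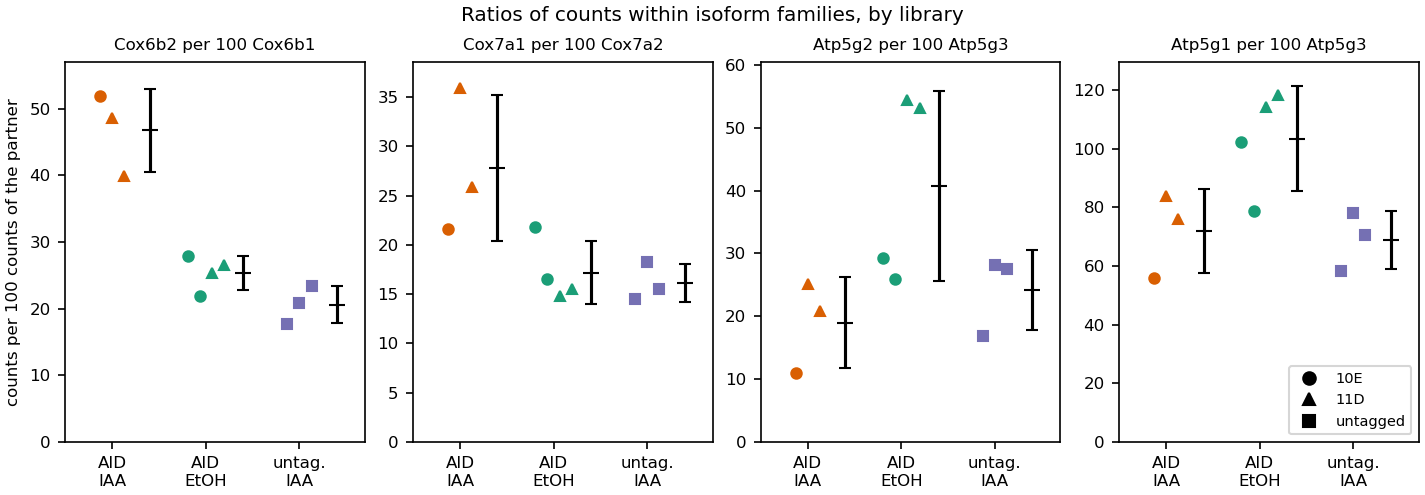
Counts of 1 isoform per 100 counts of its partner (y axis, from 0) in each library for 4 pairs, with IAA-treated degron cells at the left, EtOH-treated degron cells in the middle and untagged cells at the right; symbols mark the lines, and bars show mean and SD. Cox6b2 per 100 Cox6b1 counts is 39.9 to 51.9 in the IAA-treated degron libraries and at most 27.9 elsewhere.

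With TMM, the summed levels of complexes I, II, III and V were lower in each IAA-treated degron library than in any EtOH-treated one. Without it, as a share of all counts, complex I was higher in each IAA-treated degron library, at 0.187% to 0.194% against 0.172% to 0.186% in EtOH-treated degron cells. The other complexes then overlapped, complex V at 0.324% to 0.358% in IAA-treated and 0.356% to 0.394% in EtOH-treated degron cells, and complex III at 0.0835% to 0.0904% and 0.0887% to 0.108%. Complex II summed to 360, 326 and 363 CPM in IAA-treated degron cells, to between 423 and 500 CPM in EtOH-treated degron cells and to between 458 and 485 CPM in untagged cells. Complex III summed to between 736 and 755 CPM in IAA-treated degron cells, 940 and 1106 CPM in EtOH-treated degron cells and 855 and 960 CPM in untagged cells. Complex V summed to between 2855 and 2989 CPM in IAA-treated degron cells, 3878 and 4447 CPM in EtOH-treated degron cells and 3544 and 3956 CPM in untagged cells. Complex I summed to between 1619 and 1674 CPM in IAA-treated degron cells, 1894 and 2080 CPM in EtOH-treated degron cells and 1668 and 1868 CPM in untagged cells. Complex IV summed to between 1160 and 1280 CPM in IAA-treated degron cells, 1274 and 1569 CPM in EtOH-treated degron cells and 1163 and 1254 CPM in untagged cells, and it was the complex whose IAA-treated and EtOH-treated degron libraries overlapped. As a share of all members' counts, which is free of scaling, complex V held 42.43% to 42.73% in IAA-treated degron cells, 44.89% to 46.07% in EtOH-treated degron cells and 45.95% to 46.42% in untagged cells. Complex I held 23.11% to 24.54%, 21.44% to 22.35% and 21.53% to 21.92% in the same order of groups, and complex IV 17.06% to 18.27%, 14.78% to 16.62% and 14.71% to 15.21%. Complex II held 4.841% to 5.257%, 4.839% to 5.566% and 5.693% to 5.956%, and complex III 10.69% to 10.94%, 10.98% to 12.71% and 11.12% to 11.51%. These are parts of 1 whole, so a lower share of 1 complex raises the others. Atp5b and Atp5a1 weigh most in complex V, with means of 1090 and 824 CPM in IAA-treated and 1718 and 1029 CPM in EtOH-treated degron cells.

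**Figure D4:**
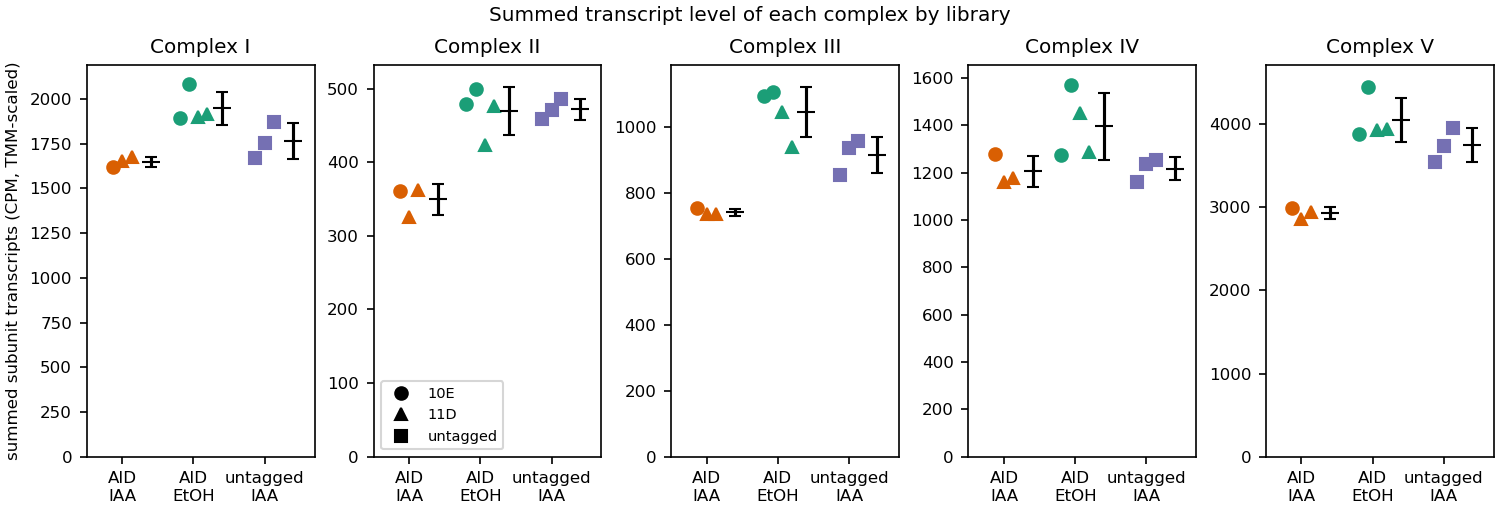
Summed TMM-scaled CPM of the members of each complex (y axis, from 0) in each library, with IAA-treated degron cells at the left, EtOH-treated degron cells in the middle and untagged cells at the right; circles are line 10E, triangles 11D, squares the untagged line, and bars show mean and SD. For complexes I, II, III and V the 3 IAA-treated degron libraries lie below all EtOH-treated ones, and for complex IV the groups overlap.

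The fold changes of most members had the same sign in both lines. Within line 10E, where IAA has 1 library, 23 members were lower and 2 higher (18.3% and 17.1% of all genes tested). Within line 11D 28 were lower and 4 higher (23.1% and 23.1% of all genes tested). The sign was the same in both lines for 67 of 80 members, or 83.8%, against 84.5% of all genes, and across the 80 genes, which are not independent replicates, the fold changes of the lines had Pearson's r = 0.73. Ndufb4 changed by -1.76 ± 0.31 in 10E and -1.29 ± 0.21 in 11D, Atp5g2 by -1.26 ± 0.21 and -1.12 ± 0.15, and Atp5l by 1.03 ± 0.22 and 0.94 ± 0.18. The test of a difference between lines by edgeR called no member and 0 of 17904 genes, with 872 genes and no member at an unadjusted p under 0.05. This does not show that the lines responded alike. Cox4i2 had the widest gap, 0.80 ± 0.88 in 10E and -0.95 ± 0.73 in 11D, at under 2 CPM.

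**Figure D5:**
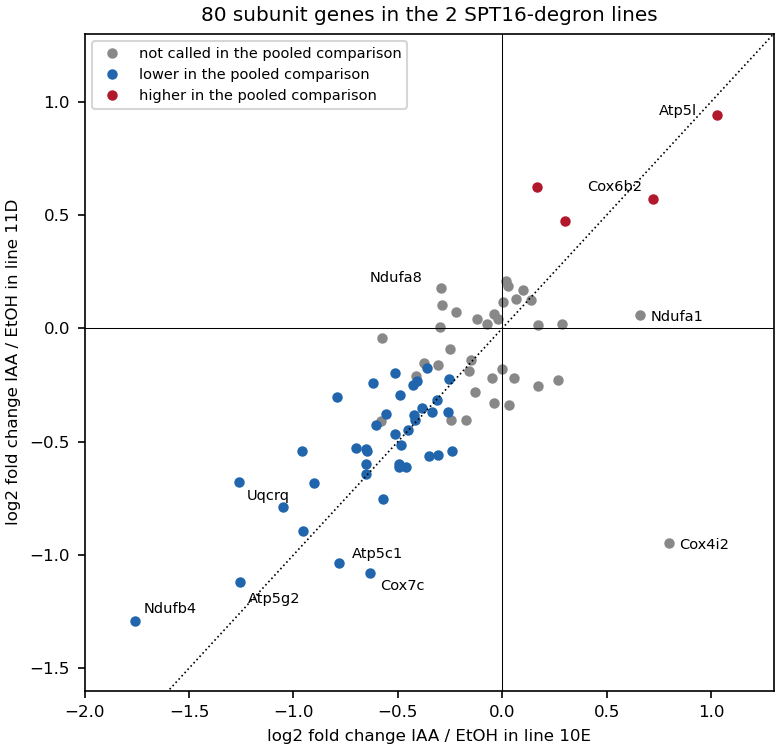
Log2 fold change of IAA over EtOH in line 11D (y axis) against line 10E (x axis) for the 80 tested members, coloured by the call in both lines together; the dotted line marks equal values. Ndufb4 lies lowest and Atp5l highest in both lines, and Cox4i2 lies farthest from the diagonal.

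The untagged cells also received IAA, so the comparison with them asks what differed when the compound was shared. It uses the same IAA-treated degron libraries as the comparison with EtOH. Of 80 members 23 were lower and 7 higher in IAA-treated degron cells than in untagged cells, against 27.8% lower and 27.9% higher of 17439 genes tested, and the median was -0.10, against 0.02 over all genes. The lower share was thus near that of all genes. With library totals alone 10 were lower and 22 higher. Complex III had 6 lower and 1 higher of 9, complex II 3 lower of 4, complex I 5 lower and 2 higher of 36, complex IV 4 lower and 3 higher of 14 and complex V 5 lower and 1 higher of 17. To untagged cells, Ndufb4 changed by -1.27 ± 0.19, Atp5c1 by -1.12 ± 0.12, Uqcrb by -0.89 ± 0.13, Cox6b2 by 1.00 ± 0.14 and Atp5l by 0.87 ± 0.15. Cox6a1 rose by 0.53 ± 0.16 in this comparison, where it had 0.01 ± 0.13 to EtOH. It stood at 183, 181 and 144 CPM in IAA-treated degron cells, 167, 203, 191 and 127 CPM in EtOH-treated degron cells and 94.3, 134 and 129 CPM in untagged cells.

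EtOH-treated degron cells were set against untagged cells to describe what differs between them without IAA in the degron lines. The untagged cells had received IAA, so the groups differed in line, tag and treatment at once. These cannot be told apart here. There, 2 members were higher and 0 lower by edgeR, against 1.27% higher and 2.29% lower of 17439 genes, with 24 members higher and 2 lower at an unadjusted p under 0.05, and the median was 0.13, against 0.00 over all genes. The 2 were Ndufa11, an accessory subunit of complex I, with 0.48 ± 0.12 (FDR 0.0444), and Atp5g1 with 0.39 ± 0.09 (FDR 0.035). Both were lower in IAA-treated than in EtOH-treated degron cells, and neither was called between IAA-treated degron cells and untagged cells, where they had 0.18 ± 0.14 and -0.11 ± 0.11. Ndufa11 stood at 41.1, 41.2 and 38.0 CPM in IAA-treated degron cells, 43.3, 54.2, 53.1 and 49.0 CPM in EtOH-treated degron cells and 29.8, 37.7 and 38.5 CPM in untagged cells, and its fall of 0.33 ± 0.12 after IAA was lost under several alternatives. The count of 2 ranged from 0 to 11 when single libraries were left out.

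Genes that act beside the subunits were described from lists. Of 53 tested assembly factors 9 fell (17%) and 10 rose (18.9%) after IAA relative to EtOH, against 28.1% and 29.3% of all genes, and the median was -0.03; with library totals alone 5 were lower and 24 higher. Ndufaf3 and Foxred1, which help build complex I, fell by 1.55 ± 0.19 and 1.09 ± 0.14, while Ttc19, of complex III, and Tmem70, of ATP synthase, rose by 1.33 ± 0.13 and 1.15 ± 0.17. Of 16 electron, nucleotide and phosphate carriers and ubiquinone enzymes 5 fell (31.2%) and 4 rose (25%) around a median of -0.08. The falls included 0.88 ± 0.09 in the adenine nucleotide translocase Slc25a5 and 0.71 ± 0.09 in its relative Slc25a4. The rises included 0.94 ± 0.14 in the ubiquinone enzyme Coq3 and 0.42 ± 0.10 in the phosphate carrier Slc25a3. Of 21 regulators of respiratory genes and mitochondrial DNA 9 fell (42.9%) and 5 rose (23.8%). These shares are near the 41.9% and 22.8% of genes with at least 10 CPM. The median of the regulators was -0.29. Among them, the methyltransferase Tfb1m fell by 2.02 ± 0.25 and Nrf1 by 0.84 ± 0.11, while the helicase Twnk rose by 0.54 ± 0.11 and the mitochondrial transcription factor Tfb2m by 0.63 ± 0.15. Of 5 subunits and partners outside the symbol rule, with a median of 0.09, Ndufa4l2 and Ndufab1 were lower, by 0.84 ± 0.22 and 0.58 ± 0.15, and cytochrome c, Cycs, was higher by 0.58 ± 0.16. Of the 13 subunits encoded in mitochondrial DNA 11 could be tested and none was called by edgeR, with 0 at an unadjusted p under 0.05, 1 higher by DESeq2 and a median of 0.10. The edgeR count of higher genes was 6 with library totals alone, 2 with upper-quartile factors and 4 without 10E EtOH replicate 2, and it was 3, with 1 lower, without both EtOH libraries richest in the ribosomal RNA row. Mitochondrial transcripts took 2.45% to 3.16% of counts in IAA-treated degron cells, 1.67% to 2.26% in EtOH-treated degron cells and 2.28% to 2.73% in untagged cells. Levels within this list were very uneven. In EtOH-treated degron cells mt-Co1 averaged 11206 CPM, while mt-Co2, mt-Co3 and mt-Atp6 averaged 7.65, 5.31 and 4.05 CPM. Whether reads of the low rows were lost in counting was not tested, so the calls and median of this list mix genes measured unequally well. With library totals alone the medians of these lists were 0.30 for assembly factors, 0.26 for carriers (3 lower, 6 higher), 0.04 for regulators (5 lower, 7 higher), 0.42 for the others outside the rule (0 lower, 1 higher) and 0.42 for the mitochondrial genes, against 0.36 over all genes.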

How the data were processed

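RNA of mouse embryonic stem cells was sequenced from total RNA after a directional library kit, per the labels' protocols. The authors deposited whole-number read counts per gene symbol as 1 table without normalization, for 10 libraries; the labels list 11 samples. STAR, deepTools and mm10 are named in the submitters' processing notes. The counter, annotation, strand setting and treatment of reads that map to several places were not given in the sources used here, so 29 members whose exons overlap another gene are uncertain. The authors also deposited a DESeq2 table, per the file headers, of base mean (a signal averaged over size-factor-scaled libraries), log2 fold change with its error, a test statistic (a score), p-value and adjusted p-value. It was used only for the counts credited to it.

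Columns carry the codes 10E, 11D and TIR1. Which clone number 10E or 11D has is not stated. TIR1 was taken as the untagged line, since this code alone has an IAA replicate 3 and no EtOH column. Line 10E has 1 IAA library, which tests assume to vary like the others. Since separate cultures are not stated for replicates, p-values reflect only the spread among these libraries, possibly technical. No 2 replicates were alike within counting noise (chi-square over degrees of freedom 3.05 to 28.9).

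Counts were tested with edgeR 4.0.16 in R 4.3.3 (quasi-likelihood F test, TMM, filterByExpr by line and treatment, Benjamini-Hochberg over all genes tested, FDR under 0.05). IAA against EtOH used the 7 degron libraries with line as a term. Each line and the interaction used 1 coefficient per line and treatment, and comparisons with untagged cells used all 10 libraries with the degron lines averaged. SE was taken as the size of the log2 fold change over the root of F. Levels per kilobase use the principal transcript of GENCODE vM21, in which all 85 members matched, 2 through older symbols. Promoter sequences are RefSeq's on GRCm38.p6. On simulated counts the IAA against EtOH fit recovered 92 of 100 genes changed by 1 on the log2 scale and 32 of 100 changed by 0.5, with 13 false calls among 16400 genes. The simulation changed few genes, in equal numbers up and down, and held no difference between lines. In the data 5034 genes were called lower and 5247 higher, so the simulated rates need not hold there. Alternatives were other scalings, no filter, DESeq2 1.42.0, no line term, a replicate block, all libraries in the fit, each library left out, and, chosen after seeing the data, leaving out both EtOH libraries richest in the ribosomal RNA row CT010467.1.

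Named members were up to 3 called members per complex and direction with the largest change at a mean of at least 2 CPM, all of complex II, the isoform families, and up to 3 per direction called against untagged cells. Of each other list, the 2 called genes of smallest FDR in each direction were named. Other members are named with their values, and 1 member is not reported here by name, though the counts and sums include it. The members and lists were chosen with earlier results of these data known, and lists get no test. Numbers of counts limit low genes: intervals and floors cover counting error only.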

Additional observations from a re-analysis of the deposited data

Results flagged for a closer look

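In 40 sets of 4 EtOH-treated degron libraries (named members, summed levels and isoform ratios), 6 had 1 library whose gap to the nearest other exceeded Dixon's 95% limit as a share of the range, where chance flags about 5% of sets. The sets are not independent, since the sum of all members holds the complex sums and these hold the single members. The 6 of 40 can therefore not be weighed against 5%. Library 10E EtOH replicate 2 was highest in 4 of the 6 flagged sets. Its Atp5b level was 1891 CPM against 1645 to 1669 CPM in the others (gap 0.9 of the range), its summed level of all members 9703 CPM against 8560 to 8746 CPM (0.837), its complex I sum 2080 CPM against 1894 to 1913 CPM (0.897) and its complex V sum 4447 CPM against 3878 to 3944 CPM (0.884). This library had the lowest TMM factor of the 10, 0.885, and 2.64% of its counts in the row CT010467.1; their part in its levels was not tested. Cox7a2 was at 45.5 CPM in 10E EtOH replicate 1 against 65.3 to 68.1 CPM in the others (0.875). Uqcrq was at 36.8 CPM in 11D EtOH replicate 2 against 89.5 to 96.6 CPM in the others (0.881).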

How the results depend on the processing

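Library totals alone gave 14 lower and 17 higher members and a median of 0.030 for IAA-treated against EtOH-treated degron cells, 10 lower and 22 higher against untagged cells, and 5 higher for EtOH-treated degron cells against untagged cells, and it turned Cox6b1 to 0.0871 and Ndufa11 to 0.0094 on the log2 scale. Other alternatives gave 31 to 39 lower members for IAA against EtOH, each within 1.5 times of 40. Leaving out single libraries gave 27 (without 10E IAA replicate 1) to 43 lower and 3 to 4 higher members with a median of -0.34 to -0.25, 17 to 28 lower and 3 (without untagged replicate 1) to 7 higher members against untagged cells, and 0 to 1 lower and 0 to 11 higher members for EtOH-treated degron cells against untagged cells. That last count of higher members was 13 without a filter, 7 by DESeq2 and 0 without both EtOH libraries richest in CT010467.1. The cause of these moves was not tested. Whether replicate numbers pair the samples could not be settled. Deviations of same-numbered libraries from their group means correlated at -0.22 and -0.14 between lines. Between EtOH and IAA within 11D, the only line where this could be computed, the correlation was 0.25, since 10E IAA has 1 library. A replicate block gave 36 lower and 4 higher members. The depth of 3100127 to 13510163 counts limits what can be said of Cox4i2 and the 5 untested members.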
